A study of Saccharomyces cerevisiae with 3 samples.

Results

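Delta elements are the long terminal repeats (LTRs) of the budding yeast retrotransposons Ty1 and Ty2, and their array features were followed here on chromatin depleted of Maf1, before and during rapamycin treatment. Every array feature whose identifier contains delta was taken, whatever its value, which gave 204 of 6399 features. Of these, 200 had a value in all 3 conditions, and they came from 179 named elements. The features YDRCdelta9-0, YDRWdelta14, YNLCdelta1-1 and YNLCdelta1-2 had no value in any condition. Saccharomyces cerevisiae cells carrying myc-tagged Maf1 were grown in the rich medium YPD to an optical density of 0.6. They were left untreated, or were treated with rapamycin at 0.2 ng/ul for 30 min or for 120 min, and the tagged Maf1 was common to all 3 groups. Maf1 was removed from crosslinked chromatin with antibodies against the tag, and the DNA that remained, in Cy5, was hybridized against the input chromatin DNA, in Cy3, on intergenic arrays. The labels state neither the strain nor how many cultures the replicates came from.

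Ty1 and Ty2 move through an RNA copy that is reverse transcribed, and each full element is flanked by a delta repeat on either side. The repeat holds the promoter, which RNA polymerase II uses. Recombination between both repeats of an element removes the body and leaves a solo delta behind, so most deltas of the genome stand alone. Ty1 integrates preferentially beside genes transcribed by RNA polymerase III (Pol III), above all tRNA genes, which is why many deltas lie near them. Maf1 is the conserved repressor of Pol III, and rapamycin inhibits the TOR kinase, which signals that nutrients suffice for growth. In an element name the second letter gives the chromosome (A for I to P for XVI), the third the left (L) or right (R) arm and the fourth the strand, W for Watson or C for Crick. YDRWdelta25 is thus a delta on the Watson strand of the right arm of chromosome IV. The name does not tell a Ty1 delta from a Ty2 delta, or a solo delta from one that flanks a full element.

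The deposited values are scores, each the authors' mean of 3 replicate arrays, and every value below is the score minus the median score of its column over all measured features. There is 1 column per condition and no spread between arrays, so differences between conditions carry no test and no p-value. Precision is limited by the number of arrays. The labels give neither the log base nor which DNA lies on top of the ratio, so a high score is not read as more or less Maf1, and no fold is given. The identifiers begin with the letter i and the arrays are called intergenic, so a feature may cover the repeat or a stretch beside it. Delta copies are also alike in sequence, and hybridization to near-identical copies cannot be told apart from signal at the named element. A feature was called high above 3 robust standard deviations (SDs) of its column, that is above 1.16 before treatment, 1.33 at 30 min and 1.54 at 120 min. It was called low below the same limit with a negative sign, background within 1 robust SD (0.388, 0.442 and 0.512), and between otherwise.

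Delta features lay above the column median in each condition. Their median score stood at 0.33 before treatment, 0.32 at 30 min and 0.42 at 120 min, where that of all measured features is 0 by construction. In untreated cells 143 of 200 delta features (71.5%) lay above 0, after 30 min 144 (72.0%) and after 120 min 145 (72.5%), against 50.0% of all features in each column. The upper part of the distribution moved more than the middle. The upper quartile stood at 0.74 before treatment, 0.65 at 30 min and 1.35 at 120 min, while the lower quartile stayed between -0.08 and -0.05. High delta features numbered 10 of 200 (5.0%) in untreated cells, where 1.27% of all features were high. After 30 min there was 1 (0.5%), against 0.111% of all features, and after 120 min there were 43 (21.5%), against 4.24%. After quantile normalization, which gives all columns the same distribution, the counts were 10, 13 and 15. The share of all features that is high is then the same in every column, but it was not computed. Background features were 90 of 200 (45.0%), 98 (49.0%) and 92 (46.0%) in the same order, against 67.4%, 68.6% and 66.8% of all features. Low delta features numbered 1, 2 and 2, against 1.19%, 0.7% and 1.67% of all features. Delta features made up 16.2% of the 266 high features of the whole array after 120 min.

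**Figure D1:**
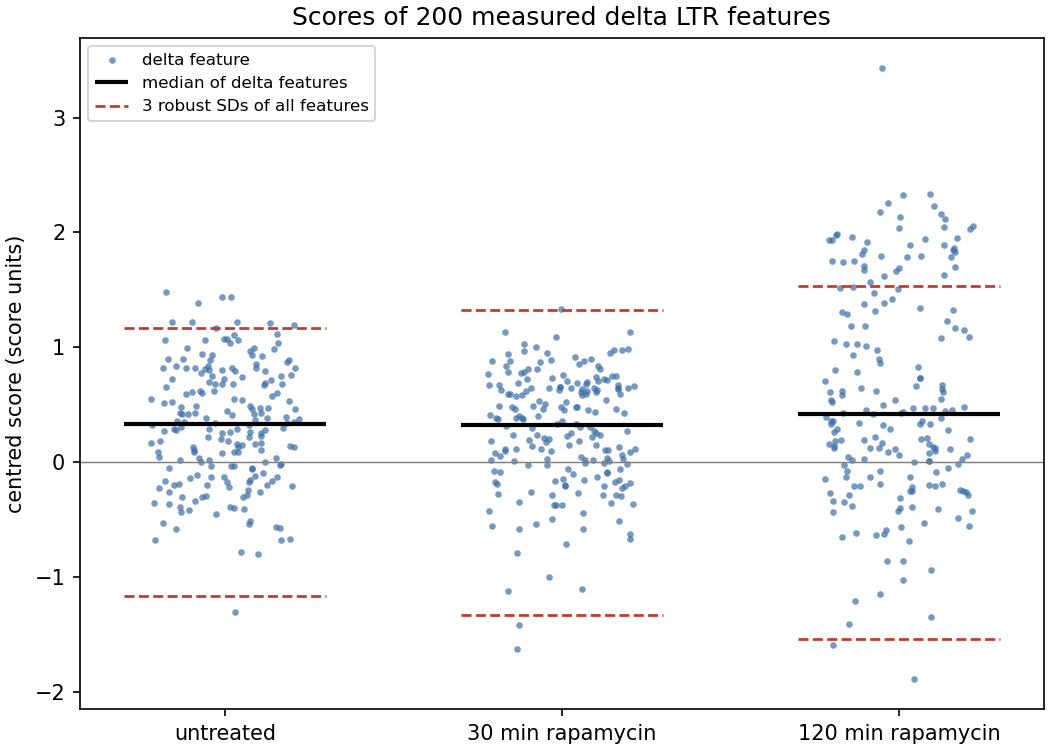
Centred score, in score units, of each of the 200 measured delta features (points) in the 3 conditions, with the median of the delta features (black bar) and 3 robust SDs of all array features on either side of 0 (dashed red). The median moves little, from 0.33 to 0.42, while 43 points lie above the upper dashed line after 120 min and 10 do in untreated cells.

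After 120 min of rapamycin the delta features fell into a broad group near the column median and a second group far above it. In bins of 0.25 score units, 30 features lay between 0 and 0.25 and 26 between 0.25 and 0.50. The count dropped to 7 between 0.75 and 1, and rose again to 20 between 1.75 and 2. The bin from 1 to 1.25 held 11 features and the next bin 9, so the rise began below the limit for a high feature. Past that limit lay 43 delta features, and 4.24% of all features, so these 43 are only part of the upper group. Their median of 1.89 and quartiles of 1.77 and 2.04 depend on where the limit was set. The 92 background features, also set by a limit and not by the trough, had a median of 0.08. A further 63 features lay between, from -1.41 to 1.53, and 2 were low. The limit does not fall in a gap. The 3 features just inside it were YERCdelta20 at 1.57, YILCdelta1 at 1.62 and YNLWdelta4 at 1.63, and the 3 just outside were YGLWdelta3 at 1.53, YNLCdelta2 at 1.52 and YBRCdelta14 at 1.51.

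**Figure D2:**
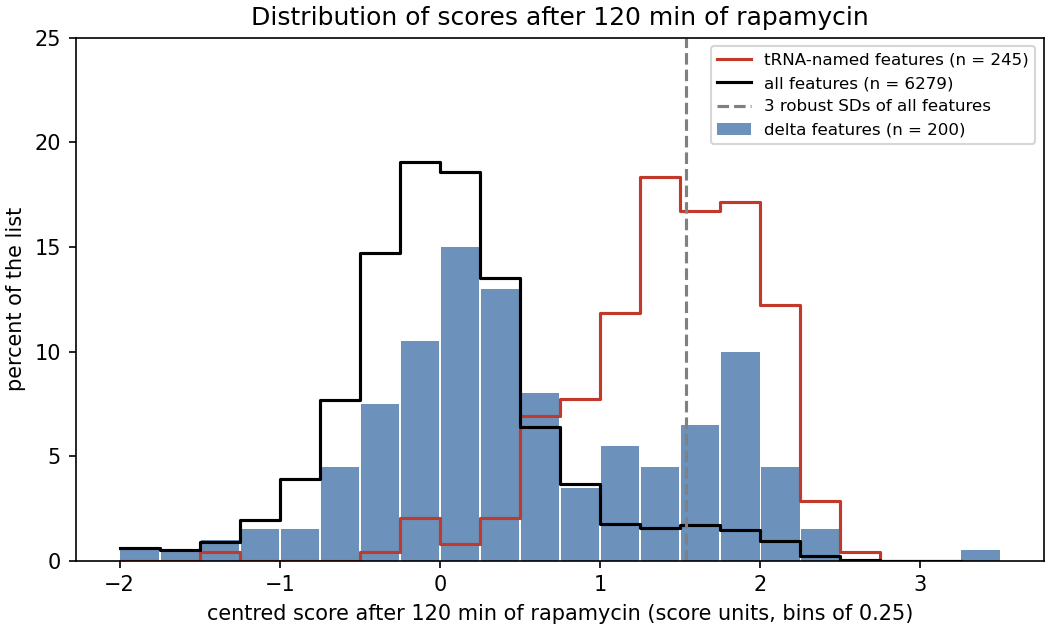
Distribution of centred scores after 120 min of rapamycin in bins of 0.25 score units, from -2 up, as the percent of each list: delta features (bars), tRNA-named features (red line) and all array features (black line), with the limit for a high feature (dashed). The delta bars have 1 peak just above 0, under the bulk of all features, and another between 1.75 and 2, within the range of the tRNA-named features.

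The delta features with the highest scores after 120 min were high or raised before treatment too. YDRWdelta25 had 0.90 before treatment, 0.30 at 30 min and 3.43 at 120 min, and ranked 1 among all 6279 features measured in the last column. After 30 min it was within the background range. YORCdelta11, the next delta, was at 1.17, 0.99 and 2.34 in the same order, and ranked 11. YHRWdelta7 had 1.06, 0.84 and 2.33, and YMRWdelta17 had 1.06, 1.13 and 2.252. Of these, YMRWdelta17 alone did not score lower after 30 min than before treatment. YLRCdelta18 had 0.89, 0.84 and 2.23, YARCdelta5 had 1.22, 0.88 and 2.17, and YJLWdelta15 had 1.11, 0.81 and 2.16. YDRWdelta26, whose number follows that of YDRWdelta25 on the same arm and strand, had 0.98, 0.59 and 2.13. None of these 8 features had an untreated score below 0.89.

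The highest untreated delta scores belonged to other features that were high after 120 min. Of those named above, YARCdelta5 and YORCdelta11 were high in untreated cells too. YLLCdelta1 had 1.482 before treatment, 0.88 at 30 min and 1.96 at 120 min. YMRWdelta21 had 1.44, 0.91 and 1.798, and YKLCdelta5 had 1.43, 0.95 and 2.04. YKRWdelta10, at 1.39, 0.65 and 1.70, YERCdelta15, at 1.22, 0.43 and 2.12, and YERCdelta10, at 1.22, 0.90 and 1.89, followed the same course, lowest at 30 min and highest at 120 min. YKRCdelta12 on chromosome XI had 1.22, 0.77 and 2.05. These elements were picked for their high untreated scores, so part of the lower 30 min scores comes with that choice. All 10 features that were high in untreated cells were high after 120 min, where they made up 23.3% of the 43. How many of the 80 array features high in untreated cells were high again was not counted. Above an untreated score of 0.745, 56.7% of all features were high after 120 min, beside 68.0% of deltas and 73.1% of tRNA-named ones. The single delta feature that was high after 30 min, YHRCdelta12, was near the column median at both other times, with 0.19, 1.34 and 0.12.

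The class of a feature after 120 min was set by that column alone, and its scores in the other columns are a separate measurement. In untreated cells the 43 features later high had a median of 0.94 and the 92 later background features one of 0.03. Of the 43, 42 lay above 0 in untreated cells and all 43 did after 30 min, where their median was 0.75 and that of the background features 0.00. The exception was YNLWdelta4, at -0.57 in untreated cells. It then had 0.76 after 30 min and 1.63 after 120 min. Raised untreated scores were also common among high features of the whole array. Of its 266 features high after 120 min, 199 had untreated scores above 0.745, as had 34 of the 43 deltas. How many of the 266 lay above 0 in untreated cells or after 30 min was not counted. Within the high class 33 of 43 features scored lower after 30 min than in untreated cells, with a median change of -0.20. In the background class 51 of 92 did, with a median change of -0.05, and 50.5% of all features did. So did 163 of 245 tRNA-named features, with a median change of -0.14, and 42 of the 50 deltas with the highest untreated scores. The untreated score enters this change, and most of the high class began with raised untreated scores. The lower 30 min scores are therefore not particular to that class. Across the 200 delta features the untreated and 120 min scores had a Spearman correlation of 0.77, against 0.57 across 6277 features of the array. Across 245 tRNA-named features it was 0.68. Such points are averages from the same arrays and share whatever a copy contributes to its relatives, so the correlations are descriptions.

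**Figure D3:**
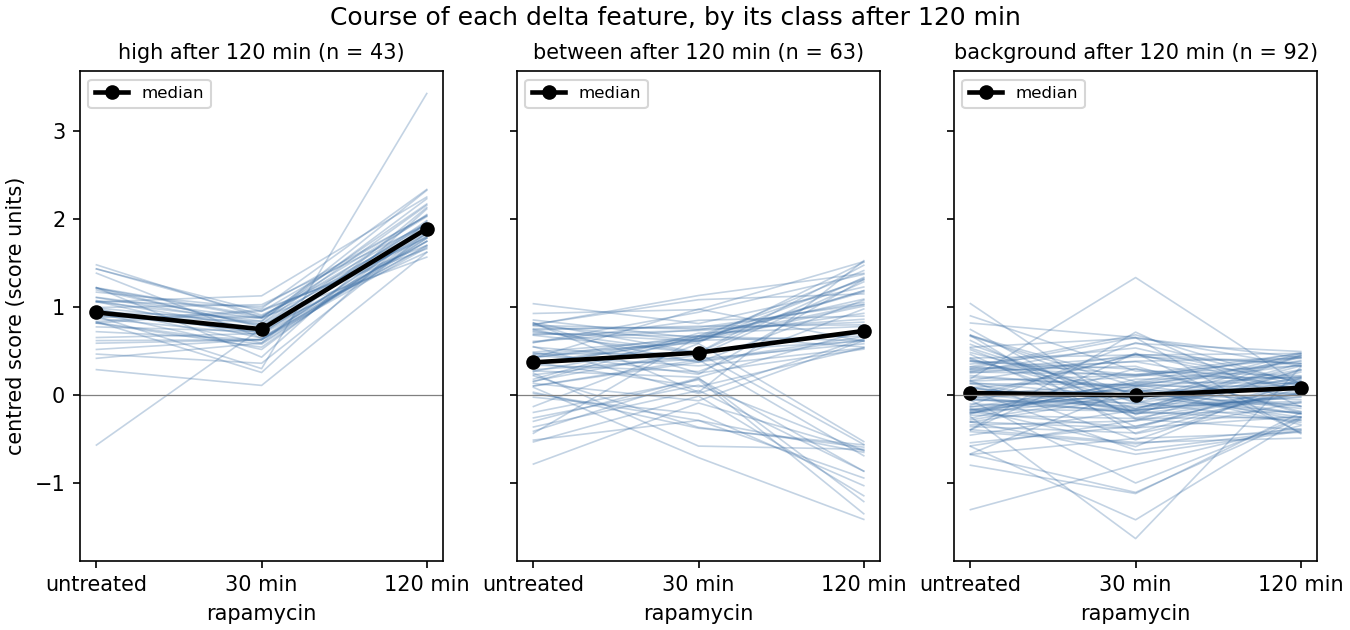
Centred score, in score units, of each delta feature (thin lines) before treatment and after 30 and 120 min of rapamycin, in panels by the class set from the 120 min column, with the class median (black). The median of the 43 high features runs from 0.94 to 0.75 to 1.89, and that of the 92 background features stays between 0.00 and 0.08. The 2 low features are not drawn.

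The level of a delta feature after 120 min went with its level before treatment. The 200 features were ordered by untreated score and split into 4 sets of 50. The counts of features high after 120 min were 1, 1, 7 and 34, from the lowest to the highest set. The median scores after 120 min were -0.21, 0.20, 0.72 and 1.79 in the same order. Other features of the array with untreated scores above the same bound of 0.745 were also often high later. Among all 351 such features, 56.7% were high after 120 min, among 130 tRNA-named ones 73.1% and among 161 named for open reading frames 38.5%, beside 68.0% of the 50 deltas. The median 120 min score in that band was 1.79 for deltas and 1.77 for tRNA-named features. In the next band down, from 0.334 to 0.745, it was 0.72 for deltas and 1.32 for 77 tRNA-named features, and 7 of 50 deltas and 27.3% of the tRNA-named features were high. These figures are set side by side without a test.

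**Figure D4:**
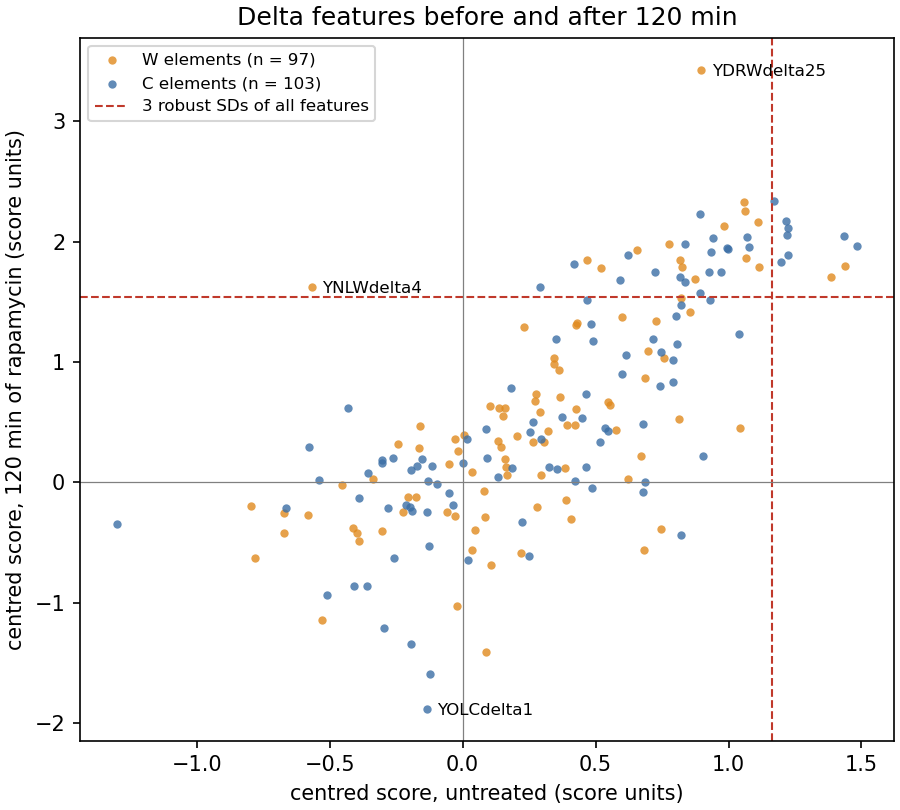
Centred score after 120 min of rapamycin (vertical, score units) against that in untreated cells (horizontal, score units) for each measured delta feature, coloured by the strand letter of the element, with the limits for a high feature (dashed). All 10 points right of the vertical limit also lie above the horizontal one, and YNLWdelta4 and YOLCdelta1 lie away from the main cloud. Other features of the array are not drawn.

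The change from untreated cells to 120 min was a higher score for most delta features. The median difference was 0.28, with quartiles of -0.11 and 0.67, and 139 of 200 features (69.5%) were above 0, where 56.1% of all features were and their median was 0.07. The other 61 deltas were below 0, as were 43.9% of all features. In the set with the highest untreated scores the median difference was 0.79 with 45 of 50 above 0, and in the lowest it was 0.15 with 32 of 50 above 0. The size of this change depended on how the columns were scaled. When all columns were given an equal spread, the median over all deltas was 0.14, and the highest set had 0.40 against 0.21 in the lowest. After quantile normalization the median over all deltas was 0.02, the highest set had -0.02 with 23 of 50 above 0, and the lowest had 0.21 with 36 of 50 above 0, so that their order turned. Past 3 robust SDs of this change there were 3 deltas above, YDRWdelta25, YNLWdelta4 and YKLCdelta4, and 4 below, against 0.892% and 2.23% of all features. Neither share stands clear of the background, in contrast to the count of high levels.

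Single deltas departed from the common course in both directions. YDRWdelta25 scored 2.53 higher after 120 min than before, and YNLWdelta4 scored 2.19 higher. YKLCdelta4 changed by 1.39, from 0.42 to 1.81, YGLWdelta6 by 1.38, from 0.47 to 1.84, and YLRCdelta18 by 1.34. YILCdelta1 changed by 1.33 and was the only high feature of the 7 measured on chromosome IX, with 0.29, 0.11 and 1.62 over the 3 conditions. The 2 low deltas after 120 min were YOLCdelta1 and YOLCdelta2, with consecutive numbers on the left arm of chromosome XV. YOLCdelta1 had -0.14 before treatment, 0.31 at 30 min and -1.88 at 120 min, and YOLCdelta2 had -0.12, 0.40 and -1.59. Both were near the column median until the last column. YPLWdelta6 had 0.09, -0.71 and -1.41, and YCRCdelta14 had -0.30, 0.20 and -1.21. In all, 7 deltas (3.5%) lay below -1 after 120 min, against 4.57% of all features.

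After 30 min the median change from untreated cells was -0.05, with 90 of 200 features (45.0%) above 0 where 49.5% of all features were. The median was 0.01 without centring, and -0.10 with equal spread, where 80 of 200 were above 0. Over the 166 features that stood alone for their element it was -0.08, with 40.4% above 0, and over the 34 numbered or lettered features 0.18, with 67.6% above 0. Past 3 robust SDs of the change, 4 deltas lay above and 4 below, against 1.67% and 1.66% of all features. Over the same 4 sets the median change ran from 0.29 in the lowest through -0.02 and -0.08 to -0.26 in the highest. The sets were cut on the untreated column, which also enters the change, so part of that order comes with the choice. The highest changes were at YNLWdelta4 with 1.33, at YHRCdelta12 with 1.15, at YLRCdelta26 with 1.11, from -0.39 to 0.72, and at 1 feature of YILCdelta5 with 1.10. The lowest were at YDRWdelta30 with -1.39, at YGRWdelta19 with -1.26, at 1 feature of YARCdelta8 with -1.12 and at YMRWdelta15 with -1.02. YDRWdelta30 was at -0.24, -1.63 and 0.32, and its 30 min score was the lowest of any delta. YGRWdelta19 had 1.04, -0.22 and 0.45, and so began within the highest untreated set and did not return to it. YMRWdelta15 had 0.75, -0.27 and -0.39.

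From 30 to 120 min, 142 of 200 delta features (71.0%) scored higher, where 56.9% of all features did. Their median difference was 0.26, against 0.07 over all features, and 0.04 after quantile normalization. Differences past 3 robust SDs were found at 12 deltas above and 5 below, against 1.45% and 2.31% of all features. YDRWdelta25 changed by 3.13, YDRWdelta30 by 1.95, YLRCdelta8 by 1.72, from 0.26 to 1.98, and YERCdelta15 by 1.68. The comparisons share columns with each other, so that a feature with an unusual 30 min score, as YDRWdelta30 had, appears in both.

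Elements represented by several numbered or lettered features had no high member. There were 34 measured features of this kind from 13 elements, and none was high in any condition. Of all array features 1.27%, 0.111% and 4.24% were high in the 3 columns, so none among 34 is near that share. The 166 features that stood alone for their element included all 10, 1 and 43 high ones. After 120 min the 34 had a median of 0.10 and a highest score of 0.93. The 166 others had a median of 0.46 and a highest score of 3.43. After 30 min both medians were 0.32. On W elements the medians of the 9 such features lay above those of the 88 others, but only after treatment. They were 0.49 against 0.22 at 30 min, 0.61 against 0.37 at 120 min, and 0.28 in both sets before treatment. The upper quartile after 120 min was 0.71 for the 9 and 1.31 for the 88, of which 19.3% were high. Features of 1 element share a stretch and are not independent of each other. The 5 features of YARCdelta8 had untreated scores of 0.68, 0.25, -0.19, -0.26 and 0.90 in the order of their numbers, 30 min scores of -0.44, -0.58, 0.18, 0.11 and 0.27, and 120 min scores of -0.08, -0.61, -1.35, -0.63 and 0.22. The first and last were the highest of the stretch before treatment and after 120 min. After 30 min the last was still the highest, but the first, at -0.44, was not near it. The 5 features of YHRCdelta14 had 0.68, 0.02, -0.13, -0.05 and 0.68 before treatment, -0.01, -0.29, 0.59, -0.13 and 0.15 at 30 min, and 0.00, -0.65, -0.53, -0.09 and 0.48 at 120 min. Again the first and last were the highest in the first and last columns, while the third was highest after 30 min. The 3 features of YERWdelta21 had 0.15, 0.42 and 0.36 before treatment, 0.67, 0.98 and 0.66 at 30 min, and 0.55, 0.61 and 0.93 after 120 min. The labels do not say how the numbers run along a stretch.

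The medians of deltas on the C strand lay above those on the W strand, except after 120 min when each chromosome was centred on its open reading frame features. The 103 measured C features had medians of 0.42 before treatment, 0.43 at 30 min and 0.43 at 120 min, and the 97 W features had 0.28, 0.24 and 0.39. After 120 min 26 of 103 C features (25.2%) and 17 of 97 W features (17.5%) were high, and 43.7% and 48.5% were background. With chromosomes centred separately the 120 min medians were 0.47 for C and 0.53 for W, which turned their order. In untreated cells 8 C and 2 W features were high. The ranges overlapped almost wholly, from -1.88 to 2.34 for C and from -1.41 to 3.43 for W after 120 min. The numbered and lettered features weighed on this split, since 25 of the 34 were on C elements. Without them the C median after 120 min was 0.96 over 78 features and the W median 0.37 over 88. By arm and strand together, the 34 C features of left arms had a median of 0.99 after 120 min, with 11 high. The other 3 combinations had medians of 0.39 (34 W features of left arms), 0.39 (63 W features of right arms) and 0.29 (69 C features of right arms), with 6, 11 and 15 high. Strand and arm were set by no experiment, and these splits were not tested.

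High deltas after 120 min were found on 15 of 16 chromosomes. Chromosome V held the most, 7 of 21 measured features, followed by VII with 5 of 16, XII with 5 of 19 and XI with 4 of 11. Chromosome III had 12 measured features and no high one, and its highest score was 1.42 at YCRWdelta13, just under the limit. The chromosome medians after 120 min ran from 0.06 on chromosome I to 1.19 on chromosome XI. With each element counted once, chromosome I had 0.24 and chromosome VIII was lowest at 0.13. Chromosomes X, at 1.09 over 12 features, and II, at 1.03 over 9, were nearest to chromosome XI. In untreated cells chromosome XI also had the highest median, 0.72, with 10 of 11 features above 0. The lowest untreated medians were -0.20 on chromosome IX and -0.13 on chromosome VI, each over 7 features. With each element counted once they were -0.11 and -0.13. Scores within a chromosome were spread widely, for example from -0.69 at YERWdelta12 to 2.12 at YERCdelta15 on chromosome V. With each chromosome centred on its own open reading frame features, 18 deltas were high in untreated cells in place of 10. The share of all features that was high with that centring was not computed.

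**Figure D5:**
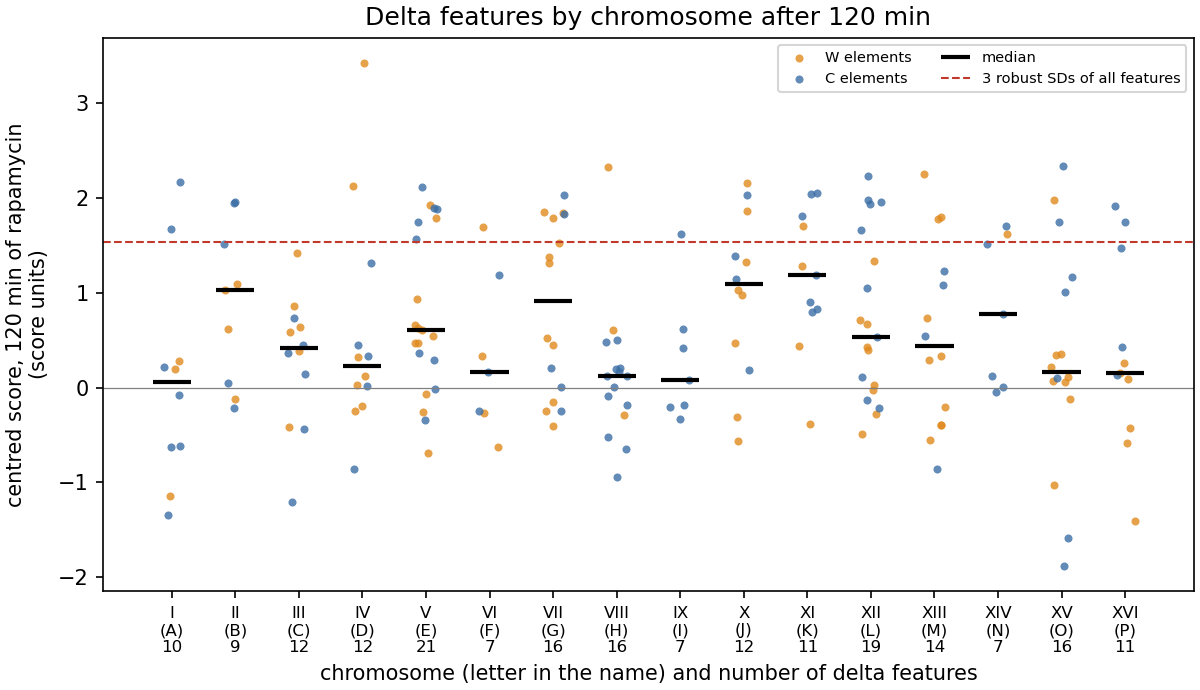
Centred score after 120 min of rapamycin, in score units, of each measured delta feature by chromosome, coloured by strand letter, with the chromosome median (black bar) and the limit for a high feature (dashed). Below each chromosome stand its letter and its number of measured features. Every chromosome but III has at least 1 point above the limit, and points near 0 are found on each.

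Changes by chromosome were uneven as well. From untreated cells to 120 min the median difference was negative on chromosomes I, at -0.49 over 10 features, and VIII, at -0.11 over 16, and positive on the other 14. On chromosome I, 5 of the 10 features came from YARCdelta8, and over the 5 that stood alone for their element the median was 0.44. On chromosome VIII it was -0.07 over 9 such features, with YHRWdelta7 the only high one. The highest medians were 0.59 on chromosome XIV over 7 features and 0.57 on chromosome V over 21, where 19 of 21 were above 0. After 30 min chromosome IV stood lowest, with a median change of -0.49 and 3 of 12 features above 0. It also held YDRWdelta24, at -0.80, -1.12 and -0.20 over the 3 conditions. With 7 to 21 features per chromosome, none of these medians was tested against the others.

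Numbers in the element names were used to ask whether deltas close in number had like scores. On 15 of 16 chromosomes every left-arm number was below every right-arm number, and no number was used by more than 1 measured or unmeasured element of a chromosome, so the numbers appear to run along it. Between 96 pairs of measured elements with consecutive numbers, each element taken once, the Spearman correlation was 0.02 before treatment, 0.08 at 30 min and 0.03 at 120 min. The median gap between the scores of such a pair after 120 min was 0.90, and 0.95 between 955 other pairs on the same chromosome. Consecutive elements were both high in 5 pairs, 1 of them was high in 34 pairs, and neither in 57. The 5 pairs were YDRWdelta25 and YDRWdelta26, YELWdelta6 and YERWdelta7, YGRCdelta30 and YGRWdelta31, YKLCdelta4 and YKLCdelta5, and YLRCdelta18 and YLRCdelta19. These names were chosen after the values had been seen. Elements with consecutive numbers may lie far apart, and positions were not used here.

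Among the LTRs of the other yeast retrotransposons, tau, the repeat of Ty4, also had high members. The 21 tau features had medians of 0.47 before treatment, 0.47 at 30 min and 0.49 at 120 min, and 6 of them (28.6%) were high after 120 min, with an upper quartile of 1.71. Of 13 sigma features, the repeats of Ty3, and 10 omega features, the repeats of Ty5, none was high in any condition. Their highest 120 min scores were 0.75 and 0.68. Of all features 1.27%, 0.111% and 4.24% were high in the 3 columns, so lists this short can hold none without standing apart. The feature named for the full element YDRCTy1-2 had 0.64, 1.53 and 1.66. The tRNA-named features lay above the deltas as a list, with a median of 1.46 after 120 min, 47.3% high and 6.12% background. Above the same limit, the 43 high deltas ran from 1.57 to 3.43 and the 116 high tRNA-named features from 1.54 to 2.50. At the other end, YPRWdelta16 stayed closest to the column median through all 3 conditions, with 0.04, 0.05 and 0.09.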

How the data were processed

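Per the labels, DNA of chromatin immunodepleted for Maf1 (Cy5) was hybridized against input chromatin DNA (Cy3), and each deposited score is a mean that the authors took over 3 replicates, normalized to a list of genes. Sources used here do not give that list, the background correction, spot filters, log base, direction of the ratio or genome build. All 3 columns were mapped through their sample names, and 0 were left unmapped.

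From each column the median of its measured features was subtracted, and its robust SD was 1.4826 times the median absolute deviation. Classes, changes and medians were computed with Python 3.11.15, pandas 2.3.3 and NumPy 2.4.6. The code for the calls was run on simulated normal scores, some of them shifted well past the limit. That run checks the code only, not the calls made here. With 1 averaged column per condition no test was made. Members, limits and naming rules were chosen with earlier results of these data known. Features named are the extremes of each column and change, those next to the limit, the top of each chromosome and those nearest 0, plus members of small counts. Alternatives changed the centring, spread, limit and members. They were set against the 95% order-statistic interval of the median over features, which covers spread between features, not arrays. Neighbouring genes and sequences of the deltas were not used here.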

Additional observations from a re-analysis of the deposited data

How the results depend on the processing

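No paired analysis was possible because each condition has 1 averaged column, and for the same reason no replicate could be left out. Over the settings tried, the median delta level stayed above 0 in every condition. The count of high deltas depended on the limit: before treatment, at 30 min and at 120 min it was 47, 16 and 65 with 2 robust SDs, and 0, 0 and 10 with 4. For these limits, and for the settings that follow, the share of all features called high was not computed. The counts therefore have no background beside them. Each chromosome centred on its own open reading frame features gave 18 in untreated cells. Quantile normalization, which forces the same distribution on all columns, gave 13 after 30 min and 15 after 120 min, and median changes of 0.024 from untreated cells to 120 min and 0.041 from 30 to 120 min. With equal spread the former was 0.14. Leaving out the numbered and lettered features, chosen after seeing the data, moved the C median after 120 min to 0.96 and the change from 30 to 120 min to 0.40. Of the other values compared in this way, 157 stayed within 1.5 times or inside the interval of the median. Names with a single delta were all 200 measured features. Elements beside tRNA genes could not be separated, and low counts of 0 to 7 features moved with the limit.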
